A study of Mus musculus with 18 samples.

Results

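The genes described here are those whose loss or mutation gives cystic kidneys or that carry cargo along the primary cilium. They were chosen by name as the protein-coding genes of the intraflagellar transport (Ift), Bardet-Biedl (Bbs) and nephronophthisis (Nphp) series, together with Pkd1, Pkd2, Pkhd1, Umod, Invs, Nek8, Anks6, Cep290, Iqcb1, Tmem67, Mks1, Rpgrip1l, Arl13b, Arl6, Kif3a, Bicc1, Glis2 and Glis3. This gave 48 of the 78317 genes in the table, of which 46 passed the filter on low counts and were among the 16544 genes tested. The other 2, Pkhd1 and Ift70a2, did not pass this filter and are described by their counts.

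The RNA came from wild-type kidneys of outbred CD1 mice at embryonic day 14 (E14). Every group had the same handling: 4 hours with an adeno-associated virus of serotype AAV2, then 72 hours embedded in a gel of collagen I and matrigel. Each vector expressed the red reporter mCherry from the ubiquitous cag promoter, followed by 2 mir30 hairpin cassettes, directed at Mylk (Mylk-shRNA), at Rock1 and Rock2 (Rock1/2-shRNA), or holding shuffled Rock1 and Rock2 targets (scramble-shRNA). Explants of a condition were pooled and sorted into an mCherry-positive fraction (the top 25% of signal) and an mCherry-negative fraction (the bottom 50%), with 1 library of each of the 6 groups from each of 3 litters. No group went without a vector, and cells were sorted on mCherry signal, not on a marker of a cell type. Markers of the fetal kidney were present in all 18 libraries, with Six2 of nephron progenitors at 165 to 395 CPM, the count divided by the library's total and scaled to a common size, Pax2 at 39.9 to 146 CPM and Foxd1 of the stroma at 92.5 to 422 CPM.

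The primary cilium is a single microtubule-based antenna on most cells of the developing kidney, including tubule epithelium. Proteins are carried in and out of it by intraflagellar transport. Trains of the IFT-A and IFT-B complexes move outward on kinesin-II and back on dynein-2, and the BBSome links membrane proteins to them. A gate at the base, the transition zone, and a stretch of shaft above it, the inversin compartment, hold many of the proteins mutated in nephronophthisis, Meckel and Joubert syndromes, while polycystins sit in the ciliary membrane and are mutated in dominant polycystic kidney disease.

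Many ciliary genes are switched on by RFX transcription factors, which bind an X-box. Promoter sequence is therefore shown for the members that match the written form of this motif given below. RefSeq promoter windows (GRCm38.p6, 250 bases before to 50 after the start of the gene) were found for 38 of the 48 members, 34 of them under the same symbol and the others through their Ensembl identifier. The X-box was searched on both strands as GTTNCC, any 2 bases and GGNAAC, where N is any base, and in no other form. It lay in the windows of 4 of the 38 members (10.5%), Mks1, Bbs7, Ift56 and Ift70a2, and in those of 0.529% of 27025 genes in the same RefSeq table. Its left arm written GTTGCC, which is part of the X-box in all 4 of these, lay in 14 of 38 members (36.8%) and in 14.1% of genes. A match describes these letters and not binding. The 200 bases before the start follow, 5′ to 3′ on the strand of the gene, for the 4 members with an X-box and for Ift27 and Arl13b, 2 members with this arm whose RNA differed between the fractions (below). Capitals mark the X-box in the first 4 and the arm in the last 2.
Mks1 (chr11:87853015-87853214, plus strand): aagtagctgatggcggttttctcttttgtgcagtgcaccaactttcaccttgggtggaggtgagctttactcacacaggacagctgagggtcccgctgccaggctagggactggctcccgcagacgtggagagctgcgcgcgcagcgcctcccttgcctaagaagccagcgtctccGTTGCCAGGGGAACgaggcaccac
Bbs7 (chr3:36613390-36613589, minus strand): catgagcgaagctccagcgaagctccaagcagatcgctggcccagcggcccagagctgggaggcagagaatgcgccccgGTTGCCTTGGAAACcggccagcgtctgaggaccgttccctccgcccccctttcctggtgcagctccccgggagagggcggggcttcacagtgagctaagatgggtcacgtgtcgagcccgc
Ift56 (chr6:38381324-38381523, plus strand): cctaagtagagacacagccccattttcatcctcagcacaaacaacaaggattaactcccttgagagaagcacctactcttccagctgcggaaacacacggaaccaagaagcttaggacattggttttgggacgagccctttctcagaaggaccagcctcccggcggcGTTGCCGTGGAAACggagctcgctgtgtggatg
Ift70a2 (chr2:75978180-75978379, minus strand): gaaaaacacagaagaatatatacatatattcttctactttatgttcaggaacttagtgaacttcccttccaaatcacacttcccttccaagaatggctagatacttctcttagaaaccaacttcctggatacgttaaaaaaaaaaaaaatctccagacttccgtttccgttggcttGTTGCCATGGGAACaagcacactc
Ift27 (chr15:78174082-78174281, minus strand): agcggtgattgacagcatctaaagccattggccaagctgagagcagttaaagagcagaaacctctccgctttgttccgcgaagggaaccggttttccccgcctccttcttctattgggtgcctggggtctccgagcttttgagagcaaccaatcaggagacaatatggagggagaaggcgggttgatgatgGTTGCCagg
Arl13b (chr16:62847041-62847240, minus strand): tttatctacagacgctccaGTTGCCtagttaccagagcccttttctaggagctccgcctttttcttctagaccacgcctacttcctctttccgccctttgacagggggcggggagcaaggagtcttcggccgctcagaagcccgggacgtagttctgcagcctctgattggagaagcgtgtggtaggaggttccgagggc
The first capital stands 24 bases before the start in Mks1 and Ift70a2, 33 in Ift56, 121 in Bbs7, 9 in Ift27 and 181 in Arl13b.

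Library totals ranged from 3121624 to 12170830 counts, with a median of 4197378 in the positive and 10915604 in the negative fraction. The 6 libraries of litter 3 had totals of 3153498 to 7017758 counts (median 3987213), against 3121624 to 12170830 (median 9169669) in litters 1 and 2. Mitochondrially encoded genes took 3.95 to 9.16% of their counts (median 6.57%), against 2.01 to 4.02% (median 3.07%), so litter 3 was shallower and higher in this share by its medians while both ranges overlapped. The targeted RNAs came first as a check of the labels. In the positive fraction Mylk stood at 87.9% of scramble-shRNA (95% interval 71.3 to 108%), Rock1 at 94.1% (76.7 to 115%) and Rock2 at 88.7% (70.8 to 111%), so a fall of the targeted RNAs was not detected, and the vector comparisons below compare libraries by their labels.

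The first comparison was between the mCherry-positive and mCherry-negative cells of the same cultures, averaged over the 3 vectors. Bicc1, Ift27 and Ift22 were higher in the positive cells, and Bbs5, Glis3, Arl13b, Nphp4, Mks1 and Iqcb1 were among those lower, all by less than 1.5-fold. In all, 10 of 46 members (21.7%) passed an adjusted p of 0.05 in edgeR's quasi-likelihood test, against 33.6% of all genes tested, and the members' share was therefore below the background. Of all genes, 17.6% were called higher and 16% lower, against 3 and 7 of the 46 members. The median log2 fold change was -0.01 over the members and -0.03 over all genes. The middle 50% ran from -0.22 to 0.14 for the members and from -0.23 to 0.19 for all genes.

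The replicate numbers mark litters, so the libraries are paired. A block for litter gave 18 called members, 7 higher and 11 lower (39.1%), against 45.8% of all genes (22.2% higher and 23.5% lower). The 10 called without the block were among them. The calls that the pairing added were Pkd1, Nek8, Ift70b and Bbs7 on the higher side and Kif3a, Ift25, Bbs1 and Bbs2 on the lower side. Without litter 3, 13 of the 46 members were called, 6 higher and 7 lower, against 37.6% of all genes (19.7% higher and 17.9% lower), and 7 of the 13 were among the 10. Those 7 were Bicc1, Ift27, Bbs5, Glis3, Arl13b, Nphp4 and Mks1.

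**Figure D1:**
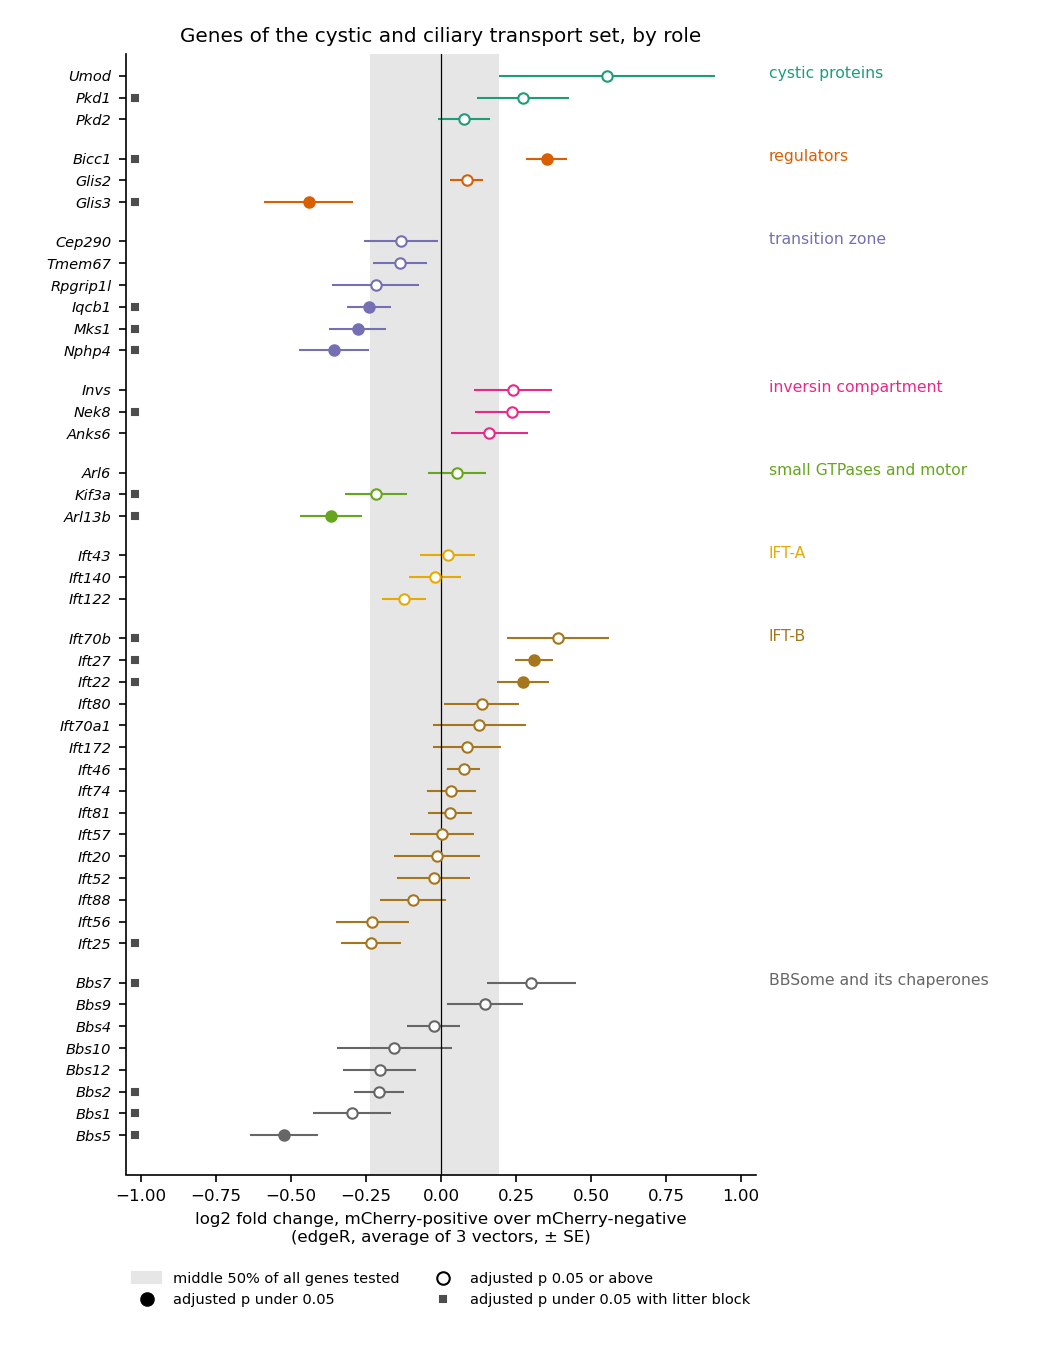
Log2 fold change of 44 of the 46 tested members between mCherry-positive and mCherry-negative cells (edgeR, averaged over 3 vectors, bars 1 SE), grouped by role. Filled points have an adjusted p under 0.05, squares at the left mark the same with litter as a block, and the grey band is the middle 50% of all genes tested (-0.23 to 0.19). Transition zone members lie mostly to the left of 0, and IFT-A members and most IFT-B members lie within the band.

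The cell types of the fractions differed in the same comparison. All 7 stroma markers were higher in the positive fraction, where their summed level was 4423 to 7386 CPM against 3072 to 3792 CPM, as were all 4 markers of smooth muscle and renin cells (288 to 877 against 88.7 to 178 CPM) and all 4 of macrophages (69.2 to 187 against 1.56 to 5.31 CPM). All 6 markers of nephron progenitors (383 to 523 against 375 to 874 CPM), all 6 of early nephron and tubule epithelium (101 to 154 against 158 to 391 CPM) and 5 of 7 of the ureteric bud and collecting duct (47.9 to 82.0 against 84.8 to 128 CPM) were lower. Neither of the 2 tested markers of multiciliated cells passed (2.59 to 5.50 against 2.57 to 6.13 CPM for the list of 4), and no marker on these lists was at 0 in every library. What part these differences have in the members' differences was not tested. In bulk RNA, fewer cells of a type and less RNA per cell cannot be told apart.

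Among the cystic disease proteins, none of the 3 tested passed without the block. Pkd1 (ENSMUSG00000032855) encodes polycystin-1, the large receptor-like protein mutated in most dominant polycystic kidney disease. It measured 27.2, 35.2 and 39.3 CPM (lowest, median and highest of 9 libraries) in the positive fraction and 19.6, 25.7 and 42.5 CPM in the negative. The ranges overlapped and Pkd1 was higher in the positive cells in 7 of 9 cultures, at a log2 fold change of 0.27 ± 0.15 (SE, adjusted p = 0.191). The litter block gave 0.31 and an adjusted p = 0.0215. All 6 cultures of litters 1 and 2 had more Pkd1 in the positive cells, and without litter 3 the value was 0.50 ± 0.10 (adjusted p = 0.00186). Leaving out Mylk-shRNA negative replicate 3 alone gave 0.42 ± 0.11 (adjusted p = 0.00608). This was the only 1 of 18 fits without 1 library in which Pkd1 passed. In the other 17 it did not (adjusted p up to 0.332, log2 fold change down to 0.20). In litter 3 Pkd1 stood at 35.2 against 32.1 CPM with scramble-shRNA but at 33.1 against 36.8 CPM with Rock1/2-shRNA and 38.6 against 42.5 CPM with Mylk-shRNA.

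Pkd2, the cation channel that pairs with polycystin-1, measured 84.9, 97.0 and 114 CPM in the positive and 75.8, 84.8 and 119 CPM in the negative fraction. The ranges overlapped, and the log2 fold change of 0.08 ± 0.09 did not pass (adjusted p = 0.534). Umod encodes uromodulin, a protein secreted by the loop of Henle, and measured 15.1, 27.3 and 60.5 CPM against 10.2, 21.2 and 46.7 CPM. It was higher in the positive cells in 7 of 9 cultures, with a wide error (0.55 ± 0.36, adjusted p = 0.270). The highest levels in both fractions came from litter 3.

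Pkhd1, which encodes fibrocystin and is mutated in recessive polycystic kidney disease, was near the limit of detection. In the positive fraction it had 0, 2 and 3 counts with scramble-shRNA, 1, 3 and 3 with Mylk-shRNA and 0, 3 and 2 with Rock1/2-shRNA. In the negative fraction it had 13, 6 and 1 counts with scramble-shRNA, 15, 8.33 and 7 with Mylk-shRNA and 8, 6 and 6 with Rock1/2-shRNA. Summed over libraries this was 17 counts of 49996945 in the positive and 70.33 of 82065844 in the negative fraction, or 0.340 against 0.857 CPM, and Pkhd1 was higher in the negative cells in 7 of 9 cultures. The limit that a count of 0 allows, 3 counts, was 0.246 to 0.961 CPM per library, which is of the order of the levels themselves.

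**Figure D2:**
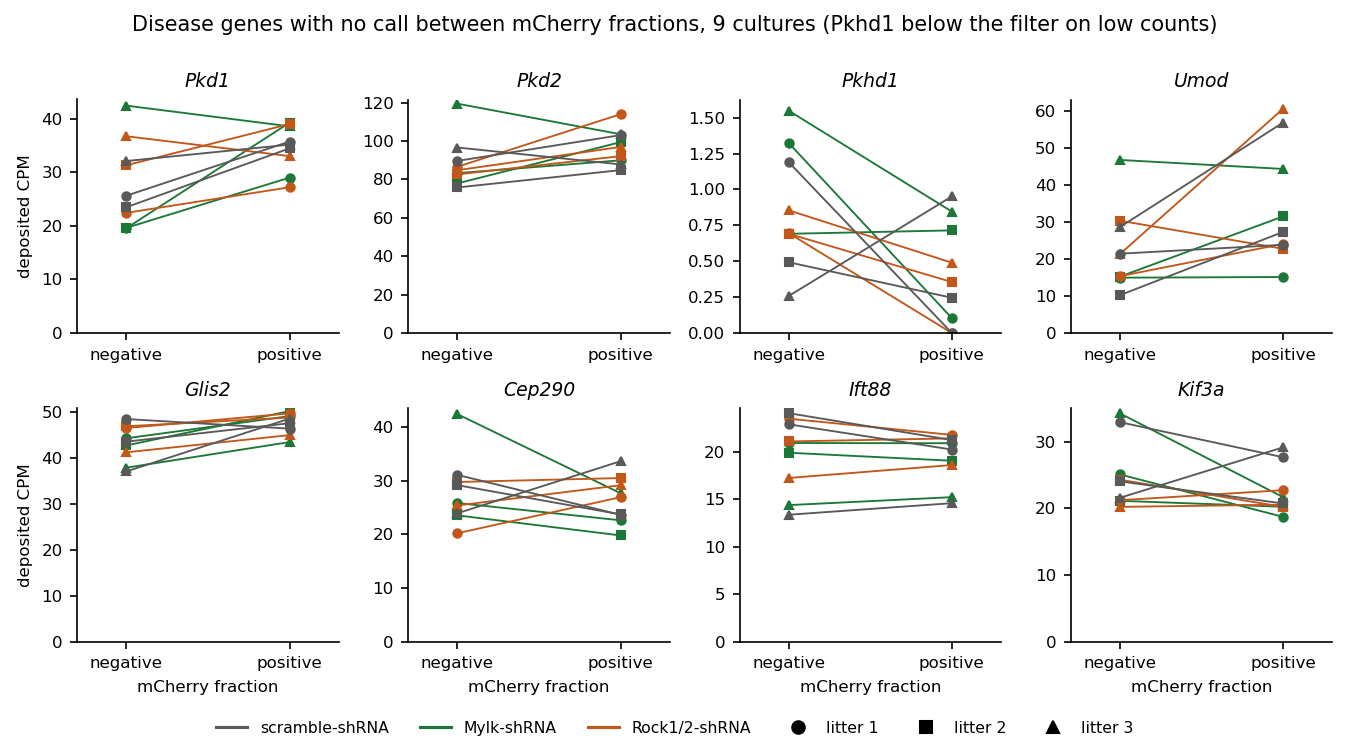
Deposited CPM of 8 disease genes in the negative and positive fraction of each of the 9 cultures, with lines joining the fractions of 1 culture, colours for the vector and symbols for the litter. Pkd1 is higher in the positive cells in 7 of 9 cultures, Pkhd1 stays below 1.6 CPM, and the highest Umod values are triangles, which are litter 3.

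Of the regulators, Bicc1 and Glis3 went in opposite directions. Bicc1 (ENSMUSG00000014329) encodes an RNA-binding protein whose loss gives cystic kidneys in mice. It measured 248, 281 and 341 CPM in the positive and 195, 218 and 249 CPM in the negative fraction. It was higher in the positive cells in 9 of 9 cultures, although the lowest positive library lay within the negative range (log2 fold change 0.35 ± 0.07, adjusted p = 0.000529). Glis3, a zinc finger transcription factor whose mutations combine neonatal diabetes with cystic kidneys, measured 3.95, 5.39 and 6.67 CPM against 4.37, 7.39 and 10.1 CPM. It was lower in the positive cells in 8 of 9 cultures (-0.44 ± 0.15, adjusted p = 0.0270), and this call was lost when scramble-shRNA negative replicate 1, Rock1/2-shRNA positive replicate 2, Rock1/2-shRNA negative replicate 2, Mylk-shRNA positive replicate 3 or Mylk-shRNA negative replicate 1 was left out (adjusted p up to 0.0667). Its relative Glis2, a nephronophthisis gene, stood at 48.5 against 43.5 CPM (medians) and did not pass (0.09 ± 0.05, adjusted p = 0.246).

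In the transition zone 3 of 7 tested members were called, all lower, where 33.6% of all genes were called and 16% were lower, and the median log2 fold change was -0.22. Nphp4, a scaffold of this gate, measured 7.37, 8.46 and 12.2 CPM in the positive and 7.74, 11.3 and 12.9 CPM in the negative fraction (-0.36 ± 0.12, adjusted p = 0.0246). It was lower in the positive cells in 7 of 9 cultures and was lost (adjusted p up to 0.0641) without scramble-shRNA positive replicate 1, scramble-shRNA negative replicate 2, Mylk-shRNA positive replicate 1 or Mylk-shRNA negative replicate 2. Mks1, a Meckel syndrome gene, measured 8.65, 12.4 and 14.2 CPM against 11.3, 13.8 and 16.6 CPM (-0.28 ± 0.10, adjusted p = 0.0315). The call was lost (adjusted p up to 0.0798) in 9 of 18 fits without 1 library, namely scramble-shRNA positive replicate 1 and negative replicate 2, Rock1/2-shRNA positive replicates 1 and 2 and negative replicate 3, and Mylk-shRNA positive and negative replicates 1 and 2, and without the filter on low counts the adjusted p was 0.115. Iqcb1, which binds calmodulin and Cep290, measured 27.8, 30.7 and 39.7 CPM against 31.6, 35.5 and 39.6 CPM (-0.24 ± 0.07, adjusted p = 0.0159). It held in all 18 fits that left out 1 library but not without litter 3 (-0.18, adjusted p = 0.122) or without the filter (adjusted p = 0.0764). The ranges overlapped for all 3. Cep290, the large linker between microtubules and membrane, had medians of 26.9 and 25.8 CPM (-0.13 ± 0.12, adjusted p = 0.445). Rpgrip1l and Tmem67 did not pass either, at -0.22 ± 0.14 and -0.14 ± 0.09.

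In the inversin compartment Invs, Nek8 and Anks6 had positive values that did not pass without the block. Nek8, a kinase mutated in juvenile cystic kidney mice, had medians of 17.9 and 15.9 CPM and was higher in the positive cells in 9 of 9 cultures (0.24 ± 0.12, adjusted p = 0.155, or 0.0104 with litter as a block). Invs, the inversin itself, and Anks6, which binds Nek8, stood at 0.24 ± 0.13 and 0.16 ± 0.13.

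Among the small GTPases and the motor, Arl13b (ENSMUSG00000022911), a GTPase of the ciliary membrane mutated in Joubert syndrome, was lower. It measured 17.8, 20.9 and 28.5 CPM in the positive and 20.3, 28.5 and 30.4 CPM in the negative fraction and was lower in 9 of 9 cultures, with overlapping ranges (-0.37 ± 0.10, adjusted p = 0.00949). Kif3a, a motor subunit of kinesin-II, had medians of 20.7 and 24.1 CPM (-0.22 ± 0.10, adjusted p = 0.116, or 0.0473 with litter as a block). Arl6, the GTPase that brings the BBSome to membranes, had medians of 23.2 and 22.4 CPM (0.05 ± 0.10).

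In the transport complexes, none of the 3 IFT-A members, Ift43, Ift122 and Ift140, was called, and their values lay between -0.12 and 0.02. Of 15 tested IFT-B members 2 were called, both higher, against 33.6% of all genes called and 17.6% higher, and the median was 0.03. With litter as a block 4 of the 15 were called, where 45.8% of all genes were. Ift27 (ENSMUSG00000016637), a small GTPase of the complex, measured 31.9, 35.2 and 39.2 CPM in the positive and 25.2, 27.3 and 30.8 CPM in the negative fraction. It was the only member whose 9 positive and 9 negative libraries did not overlap (0.31 ± 0.06, adjusted p = 0.000773), where 8.72% of all genes tested had no overlap. Ift22, another GTPase-like subunit, measured 20.6, 22.2 and 28.2 CPM against 13.1, 18.5 and 22.4 CPM and was higher in 9 of 9 cultures (0.27 ± 0.09, adjusted p = 0.0215). It missed the threshold without litter 3 (adjusted p = 0.0904) and without the filter on low counts (adjusted p = 0.134).

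Ift25, which binds Ift27 as a dimer in the complex, had medians of 29.2 and 35.3 CPM, on the other side of 0 from its partner (-0.23 ± 0.10, adjusted p = 0.0830, or 0.0346 with litter as a block). Ift88, whose loss gives cystic kidneys in mice, had medians of 20.2 and 20.9 CPM (-0.09 ± 0.11, adjusted p = 0.556). A non-coding RNA of the opposite strand, Ift88os, was left out by the biotype, and whether counting used strand is not given in the sources used here, so reads of Ift88 and this RNA may not have been told apart. Ift70b was higher in the positive cells in 9 of 9 cultures (0.39 ± 0.17, adjusted p = 0.0896, or 0.00182 with litter as a block). The other 10 tested IFT-B members lay between -0.23 (Ift56) and 0.14 (Ift80), and none passed with or without the block for litter. Ift70a1, Ift70a2 and Ift70b are close copies, so how reads were shared among them is uncertain, and Ift70a2 had at most 4 counts in a library, 15.33 in all positive and 15 in all negative libraries.

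Of 8 tested members of the BBSome and its chaperones 1 was called, and it was lower, against 33.6% of all genes called and 16% lower. Bbs5 (ENSMUSG00000063145), a BBSome subunit that binds membrane lipids, measured 4.79, 6.57 and 9.51 CPM in the positive and 7.72, 8.98 and 10.3 CPM in the negative fraction. It was lower in 9 of 9 cultures, 1.44-fold on average, although the ranges overlapped (-0.52 ± 0.11, adjusted p = 0.00127). The median over the 8 was -0.18. Other BBSome subunits lay on both sides of 0, with Bbs1 at -0.30 ± 0.13, Bbs2 at -0.21 ± 0.08, Bbs7 at 0.30 ± 0.15 and Bbs9 at 0.15 ± 0.13, none of which passed without the block. The others, Bbs4, Bbs10 and Bbs12, stood at -0.02 ± 0.09, -0.16 ± 0.19 and -0.20 ± 0.12. Under the litter block Bbs1 (adjusted p = 0.0159), Bbs2 (0.0421) and Bbs7 (0.0310) passed, so that 4 of the 8 were called, where 45.8% of all genes were.

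**Figure D3:**
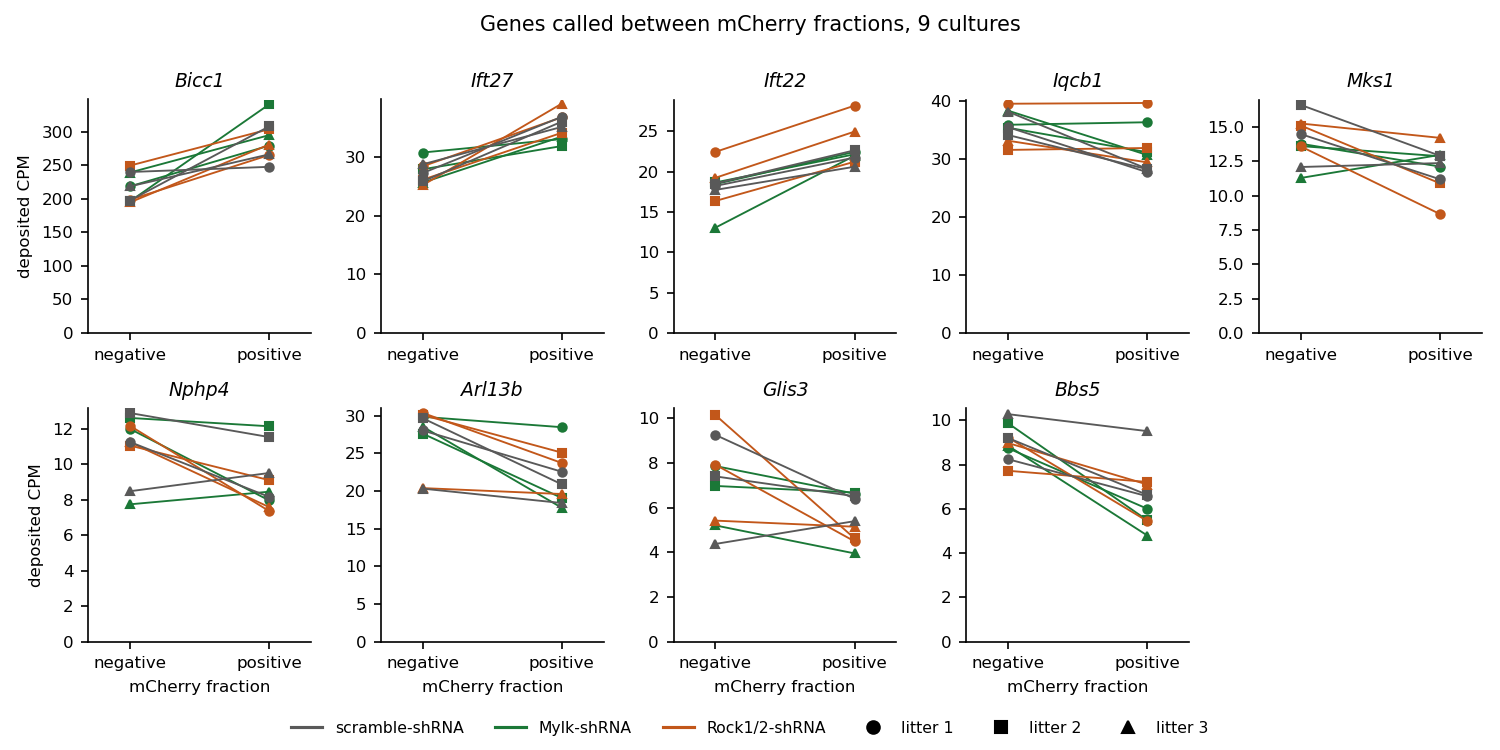
Deposited CPM of 9 called members in the negative and positive fraction of each of the 9 cultures, with lines joining the fractions of 1 culture, colours for the vector and symbols for the litter. Bicc1, Ift27 and Ift22 rise in 9 of 9 cultures and Arl13b and Bbs5 fall in 9 of 9, while the fractions of Ift27 alone do not overlap.

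Within single vectors the same question rested on 3 libraries against 3 and few members passed. With scramble-shRNA 2 were called (4.35%, against 12.3% of all genes, 7.43% higher and 4.85% lower), Ift27 at 0.36 ± 0.11 (adjusted p = 0.0340) and Iqcb1 at -0.40 ± 0.13 (adjusted p = 0.0455). With Mylk-shRNA 2 were called (4.35%, against 13.2%, 8.07% higher and 5.14% lower), Bicc1 at 0.42 ± 0.12 (adjusted p = 0.0242) and Bbs5 at -0.80 ± 0.20 (adjusted p = 0.00978). With Rock1/2-shRNA 1 was called (2.17%, against 11.2%, 6.94% higher and 4.3% lower), Ift27 at 0.41 ± 0.11 (adjusted p = 0.0173). Bbs5 with Mylk-shRNA measured 6.0, 5.48 and 4.79 CPM in the positive and 8.74, 9.87 and 8.85 CPM in the negative fraction, with no overlap, and kept its call in all 6 fits without 1 of these libraries.

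The other single-vector calls did not hold in every fit that left out 1 of their libraries. Iqcb1 with scramble-shRNA was lost in 6 of 6 such fits (adjusted p 0.0710 to 0.128). Ift27 with scramble-shRNA held only without negative replicate 3 (adjusted p 0.0247 to 0.148 over the fits). Bicc1 with Mylk-shRNA was lost without positive replicate 2 or 3 or negative replicate 1 or 2 (up to 0.102), and Ift27 with Rock1/2-shRNA without positive replicate 3 or negative replicate 2 or 3 (up to 0.0902). Under the litter block 7, 5 and 5 members were called with scramble-shRNA, Mylk-shRNA and Rock1/2-shRNA (15.2, 10.9 and 10.9%, against 23.3, 24.3 and 20.4% of all genes). Across vectors, 32 of the 46 members had the same sign with all 3, and the share of all genes that did was not counted.

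The second set of comparisons asked whether the vectors differed within a fraction. No member passed in any of the 6 comparisons between vectors or in the 2 interactions of vector and fraction, and no gene of the 16544 did either (0% of all genes), in edgeR with or without the litter block and in DESeq2. At an unadjusted p under 0.05, edgeR gave, in the positive fraction, 2 members and 258 genes for Mylk-shRNA against scramble-shRNA, 2 and 145 for Rock1/2-shRNA against scramble-shRNA, and 0 and 199 for Mylk-shRNA against Rock1/2-shRNA. In the negative fraction the numbers were 1 and 285, 0 and 200, and 0 and 121. The median 95% interval of a member reached 0.42 on the log2 scale to either side in the positive fraction and 0.38 in the negative, both for Mylk-shRNA against scramble-shRNA. These intervals are for single genes and are not adjusted over the 16544 genes. Smaller differences were mostly not detectable at this depth and number of litters, and larger ones could also miss the adjusted threshold.

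In the positive fraction the smallest unadjusted p values for Mylk-shRNA against scramble-shRNA belonged to Bbs2, Bbs12 and Kif3a. Bbs2, a core BBSome subunit, measured 12.2, 14.5 and 13.5 CPM with Mylk-shRNA and 11.5, 10.1 and 9.2 CPM with scramble-shRNA (0.35 ± 0.15, unadjusted p = 0.0304, adjusted p = 1.00). Its groups did not overlap. Bbs12, a chaperonin-like protein needed to assemble the BBSome, measured 8.07, 9.05 and 8.74 CPM against 6.92, 6.63 and 3.49 CPM (0.51 ± 0.22, unadjusted p = 0.0317, adjusted p = 1.00). Its groups did not overlap either, and the lowest value was scramble-shRNA replicate 3, without which the log2 fold change was 0.33. Kif3a measured 18.7, 20.3 and 21.7 CPM against 27.7, 20.7 and 29.2 CPM and overlapped (-0.36 ± 0.18, unadjusted p = 0.0635, adjusted p = 1.00).

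For Rock1/2-shRNA the same 3 scramble-shRNA libraries were the reference, so the values are not independent of those above. Bbs12 measured 8.33, 7.81 and 9.30 CPM with Rock1/2-shRNA (0.51 ± 0.22, unadjusted p = 0.0353, adjusted p = 1.00). Ift56, an IFT-B subunit, measured 10.9, 12.1 and 11.5 CPM with Rock1/2-shRNA and 9.05, 8.84 and 6.34 CPM with scramble-shRNA, with no overlap (0.48 ± 0.22, unadjusted p = 0.0448, adjusted p = 1.00). Iqcb1 stood at 39.7, 31.9 and 29.5 CPM against 27.8, 28.3 and 28.3 CPM, also with no overlap (0.25 ± 0.13, unadjusted p = 0.0713, adjusted p = 1.00). Between Mylk-shRNA and Rock1/2-shRNA the smallest values were those of Invs (0.38 ± 0.23), Ift27 (-0.17 ± 0.11) and Bbs4 (0.25 ± 0.16), with unadjusted p from 0.113 to 0.139 and adjusted p = 1.00.

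The members whose 3 and 3 libraries did not overlap were counted beside all genes. In the positive fraction they were 6 of 46 (13%) for Mylk-shRNA against scramble-shRNA, where 6.44% of all genes had no overlap. They were 4 of 46 (8.7%) for Rock1/2-shRNA against scramble-shRNA, where 4.76% had none. Between Mylk-shRNA and Rock1/2-shRNA they were 2 of 46 (4.35%), where 5.43% had none. In the negative fraction they were 0 (against 4.42%), 1 (2.17%, against 4.43%) and 0 (against 3.66%). The 6 were Ift27, Iqcb1, Bbs4, Bbs2, Bbs12 and Bbs5, with Ift27 and Bbs5 lower and the other 4 higher with Mylk-shRNA.

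In the negative fraction, which was sorted for low mCherry, Ift74 had the smallest p for Mylk-shRNA against scramble-shRNA. This tubulin-binding IFT-B subunit measured 38.1, 35.9 and 31.8 CPM with Mylk-shRNA and 50.3, 43.6 and 38.0 CPM with scramble-shRNA, with 1 overlapping library (-0.32 ± 0.14, unadjusted p = 0.0343, adjusted p = 1.00). Under the litter block its adjusted p was 0.561. Rpgrip1l, a transition zone scaffold, followed (-0.42 ± 0.24). For Rock1/2-shRNA against scramble-shRNA the smallest p values were those of Rpgrip1l (-0.39 ± 0.23), Kif3a (-0.27 ± 0.17) and Ift74 (-0.21 ± 0.14), and between Mylk-shRNA and Rock1/2-shRNA those of Bbs4 (0.23 ± 0.15), Kif3a (0.27 ± 0.17) and Ift22 (-0.19 ± 0.15). Among the values of this fraction named here, only that of Ift74 with Mylk-shRNA had an unadjusted p under 0.05.

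The interactions, which set the fraction difference of Mylk-shRNA or of Rock1/2-shRNA against that of scramble-shRNA, gave no call. The smallest p for Mylk-shRNA was that of Bbs12 (0.64 ± 0.30, unadjusted p = 0.0458, adjusted p = 1.00), followed by Rpgrip1l (0.59 ± 0.35) and Bbs2 (0.33 ± 0.20). For Rock1/2-shRNA it was that of Ift56 (0.50 ± 0.30, unadjusted p = 0.112, adjusted p = 1.00), followed by Iqcb1 (0.29 ± 0.18) and Bbs12 (0.45 ± 0.30). The differences between single-vector calls above, such as Bbs5 with Mylk-shRNA, are therefore not shown to differ between vectors. The median interval of an interaction reached 0.57 to either side.

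**Figure D4:**
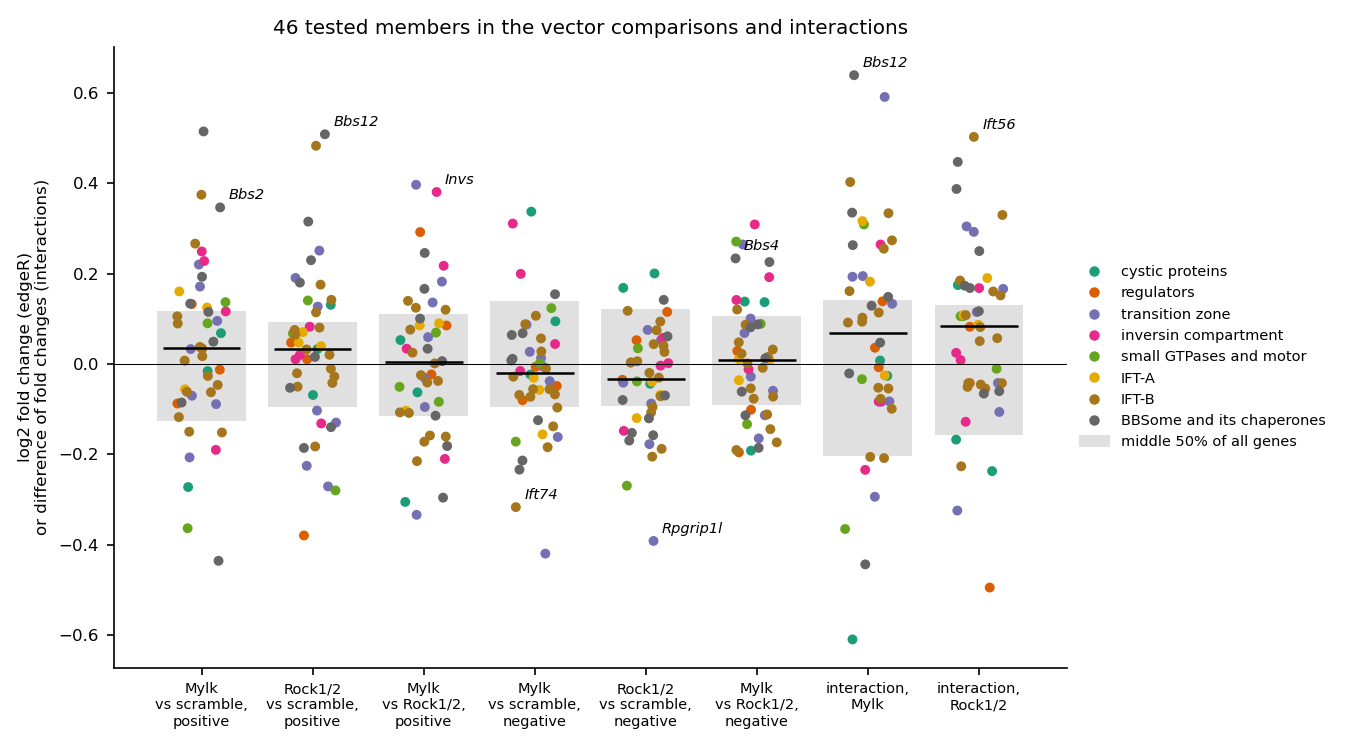
Log2 fold changes of the 46 tested members in the 6 comparisons of vectors and, at the right, the differences of log2 fold changes in the 2 interactions. Points are members coloured by role, black lines their medians and grey bars the middle 50% of all genes tested, and the member with the smallest unadjusted p is named. The medians lie between -0.03 and 0.08, and no point passed an adjusted p of 0.05.

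The members were then described by litter. Litter 3 was set against litters 1 and 2 as a description, since its libraries were also, by their medians, shallower and richer in mitochondrial RNA and these cannot be told apart. For each gene the mean log2(CPM + 0.5) of litters 1 and 2 was taken from that of litter 3. The median of these differences was -0.22 over the 46 members and -0.08 over all genes. Litter 3 was the lowest of the 3 litters in all 6 groups for 10 members (21.7%, against 13.2% of all genes) and the highest in all 6 for 2, among them Ift20 (4.35%, against 5.52%). Of the 10, 7 belonged to the 15 tested IFT-B members: Ift52, Ift70a1, Ift70b, Ift74, Ift80, Ift81 and Ift88. The others were Arl6, Bbs9 and Bbs10. With CPM rescaled by TMM the counts were 8 of 46 and 6 of 15, against 9.2% of all genes.

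Ift52, an IFT-B core subunit, is an example chosen for its clear separation. Its 12 libraries of litters 1 and 2 measured 31.0, 34.4 and 36.3 CPM (lowest, median and highest) and its 6 libraries of litter 3 measured 17.04, 25.3 and 26.5 CPM, with no overlap. Ift88 measured 19.1, 21.2 and 24.1 CPM against 13.4, 14.9 and 18.6 CPM, again with no overlap. Bbs10, a chaperonin-like protein, measured 4.02, 4.94 and 6.5 CPM against 1.97, 2.95 and 3.81 CPM. These were all lower in litter 3. Ift70a1 and Ift81 did not overlap either, with lowest values of 12.1 and 32.7 CPM in litters 1 and 2. Their highest values in litter 3 were 10.5 and 32.4 CPM. Ift70b, Ift74, Ift80, Arl6 and Bbs9, also lowest in litter 3 in all 6 groups, did overlap between these litters. The share of all genes with no such overlap was not counted.

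Umod and Ift20 went the other way. Umod had mean levels of 19.1, 22.8 and 43.0 CPM in litters 1, 2 and 3, and was higher in litter 3 in 5 of 6 groups, with a difference of 1.00 on the log2 scale. Ift20, an IFT-B subunit also found at the Golgi, measured 52.4, 70.0 and 76.5 CPM in litters 1 and 2 and 86.6, 91.9 and 101 CPM in litter 3, with no overlap. Of the 3 tested cystic disease proteins all had positive differences, from 0.13 to 1.00.

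**Figure D5:**
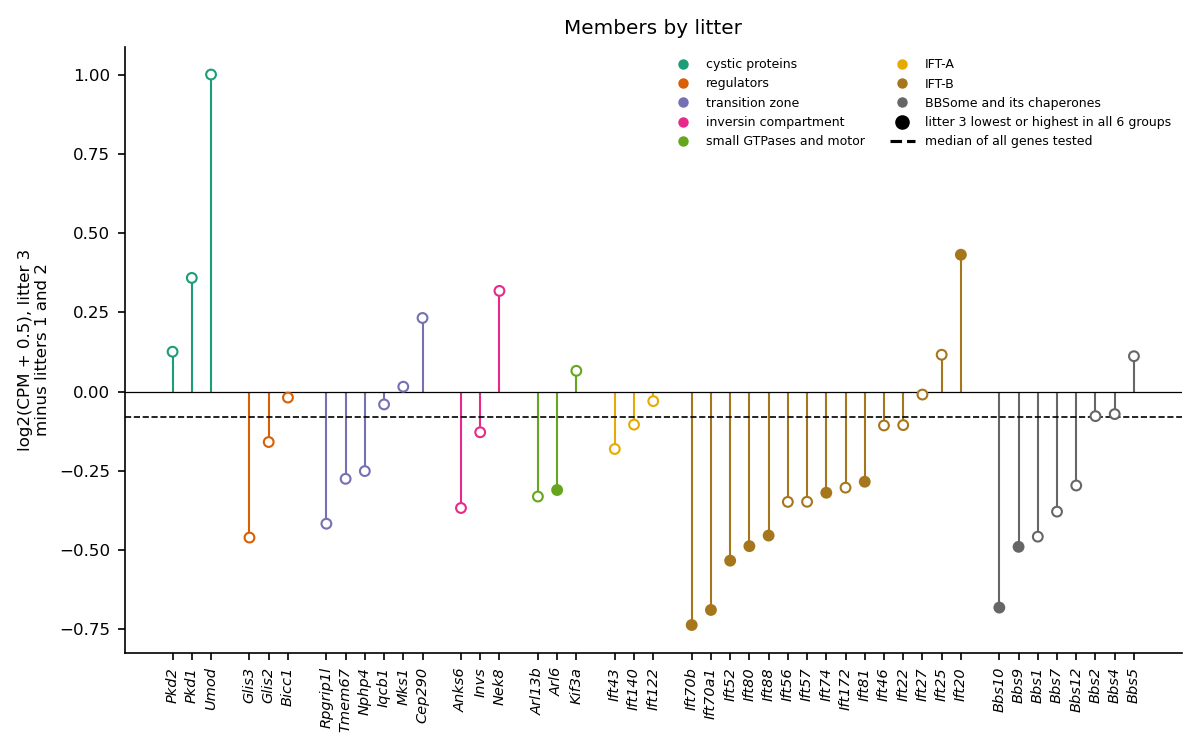
Mean log2(CPM + 0.5) in the 6 libraries of litter 3 minus that in the 12 libraries of litters 1 and 2, for 44 of the 46 tested members grouped by role. Filled points are members for which litter 3 was lowest or highest of the 3 litters in all 6 groups, and the dashed line is the median of all genes tested (-0.08). Most IFT-B members lie below the line, down to -0.74 for Ift70b, and Umod stands at 1.00.

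Other genes of the cilium and of cystic disease were read beside the members. The table held 57, of which 56 were tested, and 14 (25%) were called between the fractions, 5 higher and 9 lower, with a median log2 fold change of -0.05, against 33.6% and -0.03 for all genes. Those lower included Dcdc2a (-1.74 ± 0.24), a doublecortin-domain protein of cilia, Nek1 (-0.47 ± 0.10), a kinase whose loss gives cystic kidneys in mice, and Tmem231 (-0.46 ± 0.09), a transition zone membrane protein. The highest were Kif3b (0.37 ± 0.10) and Kifap3 (0.36 ± 0.08), the partners of Kif3a in kinesin-II, whose own value was -0.22 ± 0.10. B9d2 (0.32 ± 0.09) and Gpr161 (0.31 ± 0.08), a transition zone protein and a ciliary receptor that restrains hedgehog signalling, were also higher. Under the litter block 19 of the 56 were called, 9 higher and 10 lower (33.9%), against 45.8% of all genes, 22.2% higher and 23.5% lower.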

How the data were processed

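Poly(A) RNA of 18 libraries was tagmented and sequenced, per the labels' protocols. The authors deposited 1 table of estimated counts and CPM per gene and library. The deposited CPM are the authors' counts scaled to a common library total. Per the submitters' processing notes, tools included fastp 0.24.0, STAR 2.7.11, SAMtools 1.22.1, FastQC 0.12.1, MultiQC 1.32 and featureCounts from Subread 2.1.1, with the build GRCm39. The annotation, any strand setting and tool options are not stated in these sources. Between 22.1 and 27.4% of a library's nonzero counts were fractions, and 29 of the 48 members had one in some library, so reads mapped to several places may be shared between genes.

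Counts were rounded, 92 ERCC spike-in rows were left out, and genes were kept by filterByExpr (minimum count 10, minimum total 15). edgeR 4.0.16 (R 4.3.3, limma 3.58.1) with TMM scaling and robust quasi-likelihood modelled all 18 libraries by their 6 group means (12 residual degrees of freedom, common biological spread 0.165 as a coefficient of variation). Benjamini-Hochberg adjustment ran over the 16544 genes of each of the 12 comparisons, and calls are at 0.05. Adjusted p are from this fit unless named otherwise, and intervals are 95%. A replicate is 1 litter. Deviations from group means correlated at r = 0.238 to 0.643 over 45 same-litter pairs and at -0.544 to 0.309 over 90 others, and the labels name the litters, so a fit with litter as a block was also made (spread 0.0987), and one with the culture as a block. Other alternatives were DESeq2 1.42.0 (its size factors, and its own test), no filter, only the compared groups, leaving out each library, and leaving out litter 3. Libraries of a group differed beyond sampling noise (chi-square per gene 4.29 to 51.9 over 18 pairs). The tests were first tried on simulated data with independent libraries and no litter effect, which does not cover the pairing of the real libraries. Floors cover counting error only.

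The members and lists were chosen with earlier results of these data known. Named genes are every member called in a comparison, otherwise the 3 with the smallest p, a fixed list of well-known disease genes, up to 4 called genes per direction of the other cilium list, and the targeted genes. Members named in the litter description, and others beside these, were chosen after their values were seen. Some single genes are not reported here, although counts over lists include them. Members' gene coordinates are not given, since the reference at hand is of another build. Promoter windows are RefSeq's, in GRCm38.p6.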

Additional observations from a re-analysis of the deposited data

Results flagged for a closer look

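Cep290 was picked from the 46 tested members by the signs of its fraction difference in pairs of vectors. The difference was negative in every litter with Mylk-shRNA and positive in every litter with Rock1/2-shRNA. How often random signs would give such a pattern among the members, and the share of all genes with it, were not counted. The test below used the same values that picked Cep290, so its p-values cannot decide whether the pattern exceeds what selection gives. The mean difference of log2 CPM, positive minus negative, was -0.35 with Mylk-shRNA and 0.21 with Rock1/2-shRNA, a gap of 0.56. In edgeR's quasi-likelihood test the difference between the vectors, added after seeing the data, was 0.60 ± 0.30 (SE, 3 litters each), with unadjusted p = 0.0631 and adjusted p = 1.00. With litter as a block the unadjusted p was 0.0312 and the adjusted p = 1.00, and no member passed.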

How the results depend on the processing

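With litter as replicate block 18 members were called between the fractions on average of vectors and 7, 5 and 5 with scramble-shRNA, Mylk-shRNA and Rock1/2-shRNA, and with the culture as replicate block 18, 5, 6 and 4. The coefficient of variation fell to 0.0987 from 0.165 with the litter block. With no filter on low counts 9 were called on average and 0, 0 and 0 within the vectors, with more genes tested. With only the compared groups the single-vector counts were 0, 1 and 0, with fewer libraries. Without litter 3, Mylk-shRNA gave 4, and DESeq2 gave 2 for Rock1/2-shRNA; the cause was not tested. Leaving out each library gave 7 to 12 calls on average, 0 to 1 with scramble-shRNA, 1 to 3 with Mylk-shRNA and 1 to 1 with Rock1/2-shRNA. The lowest value on average, 7, came without scramble-shRNA negative replicate 2, Rock1/2-shRNA positive replicate 2, Mylk-shRNA positive replicate 1 or Mylk-shRNA negative replicate 1. All vector comparisons and interactions stayed at 0 members under every alternative run. Pkhd1 and Ift70a2 did not pass the filter on low counts.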
